A study of Penaeus vannamei with 11 samples.

Results

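Hemocytes of female Pacific white shrimp (*Penaeus vannamei*) whose labels name *Vibrio parahaemolyticus* as the agent were compared with hemocytes of females whose agent is control, using the RNA-seq libraries whose labels give the sex as female. These were 6 of the 11 libraries of the study, 3 from Vibrio females and 3 from control females. The study asked about sex and disease resistance, and its other libraries came from 3 Vibrio males and 2 control males. All libraries were made from total RNA of cells spun out of hemolymph drawn into anticoagulant. The labels give the same treatment word for Vibrio and control animals and add no dose, route or time. Nothing in them tells whether a group's numbered libraries came from different animals, from pooled animals or from repeats, so the p values measure only the spread between these samples, which may be technical.

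Hemocytes are the circulating blood cells of crustaceans. They carry out phagocytosis and encapsulation, release antimicrobial peptides such as penaeidins, crustins and anti-lipopolysaccharide factors, start the prophenoloxidase cascade that deposits melanin, and supply the transglutaminase that cross-links the plasma clotting protein. *V. parahaemolyticus* is a Gram-negative bacterium and a major pathogen of farmed shrimp. New hemocytes come from hematopoietic tissue under cytokines such as astakine, so the circulating pool can change in make-up as well as in activity.

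The 6 female libraries held 47515873 to 53837438 counts and 13210 to 15110 genes with a count. Among genes with 1 to 20 counts, 63.2 to 68.2% had an even count, so counts were not independent fragments. Hemocyte products were abundant in all 6 libraries. Antimicrobial peptide genes took 3.09 ± 0.29% of the scaled counts in Vibrio females and 3.04 ± 0.46% in control females (SD, n = 3 each), and integrin beta subunit (LOC113819144) had 621 to 791 FPKM in Vibrio females and 655 to 937 FPKM in control females. FPKM are the deposited fragments per kilobase and depth. Markers of other tissues were low. Hepatopancreas markers such as hemocyanins and trypsins took 0.277, 0.0461 and 0.215% of the counts in Vibrio females 1, 2 and 3, and 0.0502, 0.211 and 0.128% in control females 1, 2 and 3. Of the 135 genes in that list 102 were tested and 9 had no count in the 6 libraries. Muscle markers took 0.376 to 0.517% in Vibrio females and 0.453 to 0.586% in control females, with 13 of 113 genes at 0 counts, and the gonad list held 2 tested genes of 12. These are bulk samples, in which fewer cells of a type and less RNA per cell cannot be told apart.

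The female libraries did not separate by group. Over 8241 genes of at least 5 CPM (counts per 1000000), the root mean square log2 distance was 0.97 to 1.15 between Vibrio females, 0.69 to 0.96 between control females, and 0.71 to 1.20 between a Vibrio and a control female. The difference between the group means held 12.1% of the variance, while the first principal component held 41.6% and the second 30.3%. Vibrio female 2 and control female 1, at a distance of 0.92, lay on opposite sides of the second component (0.45 and -0.35). They stood together at one end of the first component, and both were low in hepatopancreas markers. Medians of gene groups were therefore also computed without these 2 libraries, a choice made after the data were seen.

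In single genes, edgeR called 0 of 14295 genes at an adjusted p under 0.05, which is 0% in either direction. The smallest adjusted p was 0.986, and 579 genes had an unadjusted p under 0.05, of which 223 were higher (1.56%) and 356 lower (2.49%) with Vibrio. If no gene differed, about 715 would be expected under 0.05. DESeq2 called 21 genes, 10 higher with Vibrio (0.0705% of the genes it gave an adjusted p) and 11 lower (0.0776%). The 3 Vibrio females lay above the 3 control females without overlap in 355 genes (2.48% of those tested) and below them in 557 (3.9%), judged on CPM scaled between libraries by TMM. Counts of list members without overlap given below stand beside these shares. The difference was at least 2-fold in 1415 genes upward (9.9%) and 655 downward (4.58%). Log2 fold changes are given for Vibrio over control, and their median over all genes tested was 0.05, with 55% of genes higher and 44.9% lower. Without Vibrio female 3 that median was -0.02, with 48.1% of genes higher. Every gene described below had an edgeR adjusted p of 0.986 or more. The 24 genes ranked first, 12 higher and 12 lower, were those with the smallest unadjusted p among genes that carry a descriptive name, do not overlap between the groups and average 5 FPKM or more in one of them. That choice used this comparison, so their lack of overlap is a description and not a result. Further genes are the member with the smallest p of each of 37 gene lists, among members averaging 5 FPKM or more in a group. The gonad list had no such member. The most abundant immune effectors and the genes that DESeq2 called were also taken. All others were chosen after their values were seen.

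**Figure D1:**
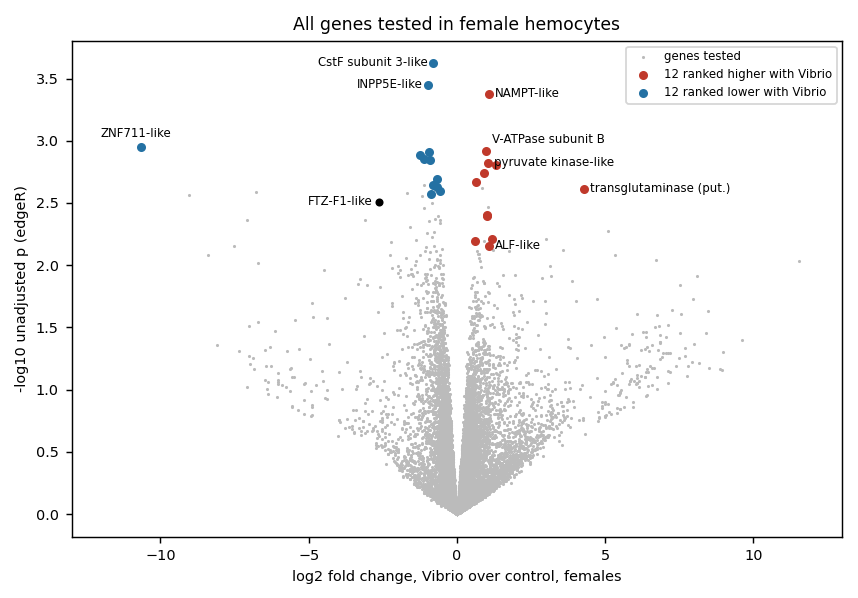
Each point is 1 of 14295 genes tested in female hemocytes, with the log2 fold change of Vibrio over control on the horizontal axis and -log10 of the unadjusted edgeR p on the vertical axis. Red points are the 12 genes ranked higher with Vibrio, blue points the 12 ranked lower and the black point is nuclear hormone receptor FTZ-F1-like; most ranked genes lie near a log2 fold change of 1 or -1, and 0 genes passed the adjusted threshold.

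The gene ranked first among those higher with Vibrio encodes a nicotinamide phosphoribosyltransferase-like protein (LOC113828203), named for the enzyme that limits the salvage of nicotinamide to NAD. It had 46.9, 40.2 and 62.0 FPKM in Vibrio females, against 20.6, 29.9 and 19.2 FPKM in control females. All 3 Vibrio libraries exceeded the highest control library. The log2 fold change was 1.09 with SE 0.21, DESeq2 called the gene (adjusted p = 0.00171), and it did so in 4 of 6 fits that leave out 1 female library.

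Acidification of lysosomes and phagosomes by the V-type proton ATPase was represented next. Its subunit B (LOC113821152) had 65.3, 83.2 and 96.6 FPKM in Vibrio females, against 31.3, 50.7 and 40.4 FPKM in control females, a log2 fold change of 0.99 with SE 0.22 (DESeq2 adjusted p = 0.0283, called in 3 of 6 fits without 1 library). The other subunit B-like gene (LOC113822054) had 90.8, 119 and 111 FPKM in Vibrio females and 54.4, 77.5 and 65.5 FPKM in control females, with a log2 fold change of 0.70. Both subunit B genes were thus separated between the groups. Subunit H-like (LOC113806145, 1 of 2 genes of that name), d 1-like (LOC113814572) and 1 of the 2 subunit a-like genes (LOC113821387) were also above control in all 3 Vibrio females, with log2 fold changes of 0.47, 0.45 and 0.43. The other subunit a-like gene (LOC113810956) ran the opposite way, at 30.5, 26.2 and 33.4 FPKM in Vibrio females and 41.1, 37.4 and 30.2 FPKM in control females. After scaling its groups did not overlap, by a small margin. Of 18 V-type proton ATPase genes tested, 17 were higher with Vibrio, with a median log2 fold change of 0.41 that was 0.27 to 0.55 without 1 female library and 0.17 without Vibrio female 2 and control female 1. This family was picked out after its values were seen.

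Glycolysis was represented by pyruvate kinase-like (LOC113828822, 1 of 2 genes of that name), the enzyme of the last step of the pathway. It had 279, 410 and 247 FPKM in Vibrio females, against 132, 181 and 141 FPKM in control females, a log2 fold change of 1.05 with SE 0.25 (DESeq2 adjusted p = 0.0323, called in 2 of 6 fits without 1 library). The like-named gene LOC113828831 had 417, 625 and 338 FPKM in Vibrio females and 240, 282 and 328 FPKM in control females, and the groups overlapped once the libraries were scaled. The FAM162B-like gene (LOC113803631) had 23.1, 32.0 and 19.2 FPKM in Vibrio females and 10.4, 9.26 and 10.2 FPKM in control females. Its control values were close to each other and all Vibrio values were higher (log2 fold change 1.31, SE 0.31, DESeq2 adjusted p = 0.0404, called in 1 of 6 fits without 1 library).

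Among immune genes, the putative hemocyte transglutaminase LOC113826241 had the largest fold of the 12. It had 7.78, 0.465 and 9.36 FPKM in Vibrio females, against 0.347, 0.111 and 0.385 FPKM in control females. Vibrio females 1 and 3 stood far above the controls, whereas Vibrio female 2 exceeded the highest control by a small margin. Its log2 fold change was 4.29 with SE 1.07 (DESeq2 adjusted p = 0.00589, called in 4 of 6 fits without 1 library). An anti-lipopolysaccharide factor-like gene (LOC113800363, 1 of 8 of that name), whose family binds the lipopolysaccharide of Gram-negative bacteria, was among the most abundant transcripts. It had 14244, 14092 and 8956 FPKM in Vibrio females, against 4889, 7675 and 5384 FPKM in control females, a log2 fold change of 1.06 with SE 0.32 (DESeq2 adjusted p = 0.178). A venom protease-like gene (LOC113821989, 1 of 12 of that name) had 24.5, 20.6 and 29.0 FPKM in Vibrio females and 11.7, 6.11 and 13.8 FPKM in control females (log2 fold change 1.19, SE 0.34). The lowest Vibrio library lay above the highest control in both of these genes.

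The other genes ranked higher belong to membrane protein biogenesis, signalling and the actin cytoskeleton. ER membrane protein complex subunit 7 homolog (LOC113829688), part of a complex that inserts proteins into the endoplasmic reticulum membrane, had 47.9, 32.9 and 57.8 FPKM in Vibrio females, against 23.0, 26.7 and 23.6 FPKM in control females (DESeq2 adjusted p = 0.0338). DESeq2 called it in 3 of 6 fits without 1 library and not in the 6 female libraries alone, but called it without Vibrio female 2 and control female 1 together. Of its 21 genes, DESeq2 called 8 in the female libraries alone and 4 without those 2 libraries. Actin-related protein 2/3 complex subunit 5-C-like (LOC113826245), of the complex that branches actin filaments, had 218, 244 and 217 FPKM in Vibrio females and 132, 185 and 128 FPKM in control females. Tyrosine-protein kinase Src42A-like (LOC113806269), named for a *Drosophila* kinase of cell adhesion and wound repair, had 6.52, 5.46 and 11.6 FPKM in Vibrio females and 4.04, 4.44 and 3.11 FPKM in control females. Amyloid protein-binding protein 2-like (LOC113818429) and failed axon connections-like (LOC113808479) had log2 fold changes of 0.65 and 1.02. Both names are shared by 2 genes.

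Of the 12 genes ranked lower, cleavage stimulation factor subunit 3-like (LOC113825629, 1 of 2 so named) ranked first by p. It belongs to the machinery that cleaves pre-mRNA at the 3' end. It had 7.04, 6.57 and 7.61 FPKM in Vibrio females, against 12.4, 13.4 and 11.1 FPKM in control females. Both groups were tight and apart, and the log2 fold change was -0.80 (SE 0.14). DESeq2 called it (adjusted p = 2.57e-06), also in 6 of 6 fits without 1 library. Its list of 97 splicing and mRNA end processing genes had 45 members higher, 51 lower and a median of -0.02, or -0.11 without Vibrio female 2 and control female 1.

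The zinc finger protein gene ZNF711-like (LOC113814387) had 0 counts in all 3 Vibrio females, against 238, 211 and 151 counts in control females, or 7.29, 6.15 and 4.51 FPKM. With 3 counts allowed over the Vibrio group, the estimated limit was 211-fold lower with Vibrio. That limit assumes independent counts, which these were not, so the true limit may be smaller. It covers counting error only. DESeq2 called it (adjusted p = 3.61e-05) also in 6 of 6 fits without 1 library, which held for 2 genes in all. The libraries of males did not follow the agent, with 5.24, 4.55 and 6.89 FPKM in Vibrio males and 3.88 and 0 FPKM in control males 2 and 3. EdgeR called the gene in females without control male 2 (adjusted p = 0.0124) or without control male 3 (0.00757), and it gave 0.986 with both.

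The 12 also held genes of 2 inositol phosphate enzymes and 1 glutamate receptor. Inositol polyphosphate 5-phosphatase E-like (LOC113804514) had 9.70, 7.71 and 8.35 FPKM in Vibrio females, against 18.0, 19.2 and 13.3 FPKM in control females (log2 fold change -0.97, SE 0.18, DESeq2 adjusted p = 0.00589, called in 4 of 6 fits without 1 library). Inositol-trisphosphate 3-kinase B-like (LOC113809602, 1 of 2 of that name), which phosphorylates the messenger that releases calcium from stores, had 7.596, 10.95 and 9.23 FPKM in Vibrio females and 17.6, 23.5 and 23.9 FPKM in control females. DESeq2 gave it an adjusted p of 0.0554, short of the threshold. A kainate 2-like glutamate receptor gene (LOC113823802, 1 of 7 of that name) had 13.4, 13.8 and 18.9 FPKM in Vibrio females and 40.4, 25.4 and 33.2 FPKM in control females (log2 fold change -1.13, SE 0.26, DESeq2 adjusted p = 0.0338, called in 2 of 6 fits without 1 library). All 3 genes lay below every control library in every Vibrio female.

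The other genes ranked lower covered protein turnover, glycan branching and nucleic acid enzymes. E3 ubiquitin-protein ligase SMURF1-like (LOC113811782), named for a ligase that limits BMP signalling, had 25.8, 27.7 and 28.1 FPKM in Vibrio females, against 51.3, 38.6 and 38.4 FPKM in control females (DESeq2 adjusted p = 0.0439, called in 2 of 6 fits without 1 library). Ribonuclease H2 subunit B-like (LOC113823352), of the enzyme that removes RNA from RNA-DNA hybrids, had 40.8, 48.9 and 54.7 FPKM in Vibrio females and 106, 91.6 and 64.9 FPKM in control females. Protein LMBR1L-like (LOC113809690), zinc finger protein OZF-like (LOC113809147, 1 of 25 of that name), aldehyde dehydrogenase family 16 member A1-like (LOC113803075), putative atherin-like (LOC113805327) and an N-glycan branching enzyme of the MGAT4 kind (LOC113806461, 1 of 2 of that name) had log2 fold changes of -0.94, -0.91, -0.68, -0.57 and -0.80. DESeq2 called the first 4 of these, with adjusted p of 0.0338, 0.0496, 0.0323 and 0.0323, but called them in only 2, 2, 3 and 1 of 6 fits without 1 library and none of them without Vibrio female 2 and control female 1. In fits without Vibrio female 2 and control female 1, all 24 ranked genes had the same sign. Their choice as genes without overlap fixes that sign in advance, so it is no support for them. In these fits the log2 fold change of pyruvate kinase-like was 0.66 and that of the MGAT4-like gene -0.51.

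**Figure D2:**
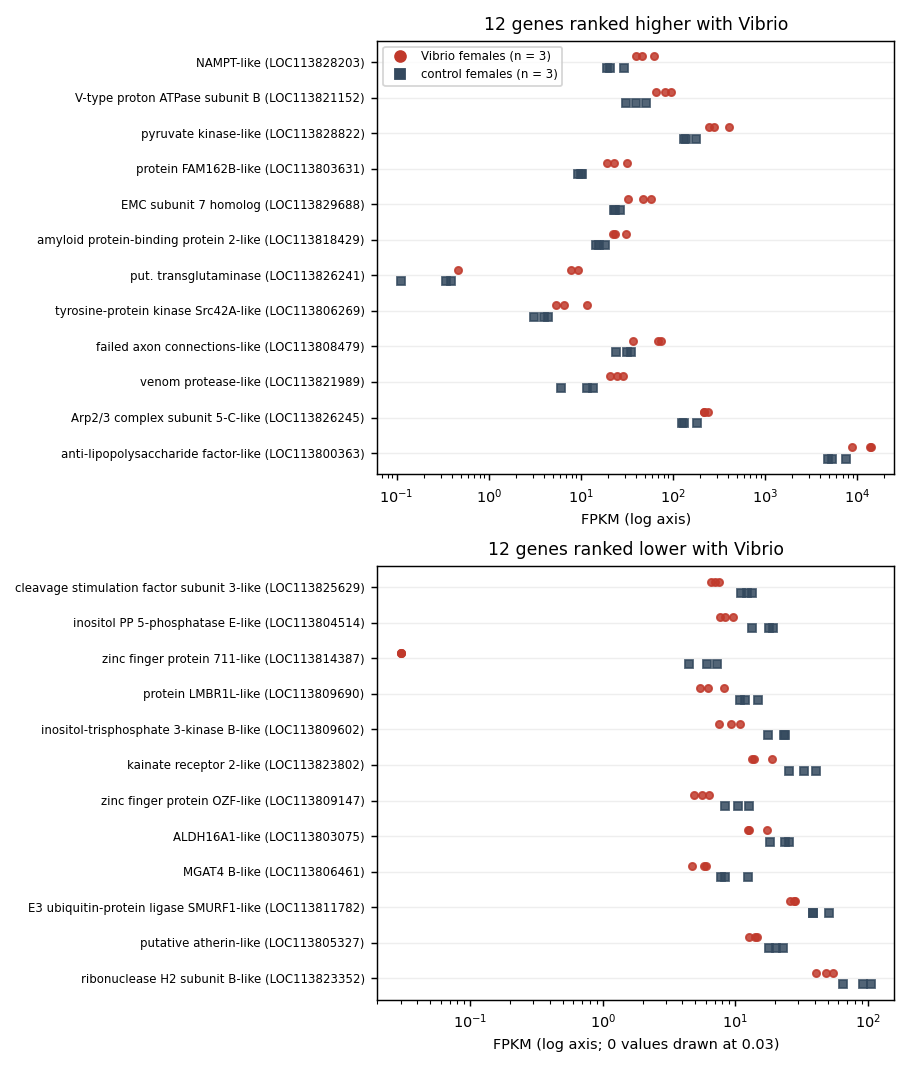
FPKM of the 12 genes ranked higher (upper panel) and the 12 ranked lower (lower panel) with Vibrio, on log axes, with a red circle for each of 3 Vibrio females and a dark square for each of 3 control females. The groups were chosen not to overlap; the putative transglutaminase has 1 Vibrio library at 0.465 FPKM close to its controls, and ZNF711-like has 0 FPKM in all 3 Vibrio libraries, drawn at 0.03.

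Antimicrobial peptides did not move as a group. Of 12 tested, 6 were higher and 6 lower with Vibrio, with 1 above and 1 below control without overlap. Their median log2 fold change was 0.13, and -0.21 without Vibrio female 2 and control female 1. Beside the anti-lipopolysaccharide factor already described, the most abundant member, a putative antimicrobial peptide (LOC113801825, 1 of 2 of that name), had 8297, 10205 and 20265 FPKM in Vibrio females and 13783, 10905 and 14123 FPKM in control females. Its groups overlapped. Penaeidin-3a-like (LOC113808997), a peptide of hemocyte granules, had 7223, 9481 and 7826 FPKM in Vibrio females, against 11835, 9567 and 18341 FPKM in control females (log2 fold change -0.73, SE 0.30). Vibrio female 2 and control female 2 were nearly level, and the groups overlapped after scaling. Crustin-like protein (LOC113816267) had 1816, 2224 and 2130 FPKM in Vibrio females and 3238, 2040 and 2805 FPKM in control females, with overlap. The second putative antimicrobial peptide (LOC113801814) was low throughout, at 3.31, 3.93 and 2.66 FPKM in Vibrio females and 6.48, 7.45 and 6.53 FPKM in control females, and its groups did not overlap (log2 fold change -1.04, SE 0.31). All 5 anti-lipopolysaccharide factor genes tested stood higher, 1 of them without overlap, with a median of 0.36, and 0.10 without Vibrio female 2 and control female 1. This family was chosen after its values were seen. Lysozyme C-like (LOC113802295, 1 of 2 of that name), an enzyme that cuts bacterial cell walls, had 336, 1519 and 493 FPKM in Vibrio females and 1719, 710 and 1209 FPKM in control females, again with overlap.

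Clotting genes took 1.48, 1.37 and 1.897% of the scaled counts in Vibrio females, against 2.90, 1.61 and 3.48% in control females. Control females 1 and 3 were high, and control female 2 lay within the range of the Vibrio females. Of 15 coagulation and transglutaminase genes tested, 10 were lower and the median log2 fold change was -0.32, or -0.29 without Vibrio female 2 and control female 1. The abundant hemocyte transglutaminase LOC113823934 (1 of 4 of that name) had 1904, 2180 and 2363 FPKM in Vibrio females, against 4502, 2519 and 5634 FPKM in control females (log2 fold change -1.01, SE 0.42), without overlap. Its like-named gene LOC113823945 had 2136, 2560 and 4210 FPKM in Vibrio females and 5530, 3007 and 6373 FPKM in control females, and LOC113823946 had 1000, 474 and 998 FPKM in Vibrio females and 814, 517 and 1052 FPKM in control females. The groups of both genes overlapped after scaling. Of the 5 hemocyte transglutaminase genes tested, 3 stood higher and 2 lower, with 1 above and 1 below control without overlap. Reads can be shared between like-named copies, and how the authors assigned them is not given in the sources used here. Coagulation factor IX-like (LOC113821430, 1 of 2 of that name) had 64.4, 58.1 and 70.2 FPKM in Vibrio females and 135, 81.7 and 114 FPKM in control females, without overlap (log2 fold change -0.80, SE 0.29).

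Both cytokine-like factors of blood cell production stood lower with Vibrio. Crustacean hematopoietic factor-like protein (LOC113802754), named for a factor that keeps hemocytes alive, had 2499, 2466 and 3956 FPKM in Vibrio females, against 4137, 4124 and 5920 FPKM in control females. The groups did not overlap (log2 fold change -0.71, SE 0.31). Astakine (LOC113822052), a cytokine that drives hemocyte formation in crustaceans, had 55.5, 108 and 210 FPKM in Vibrio females, against 1285, 109 and 1633 FPKM in control females (log2 fold change -3.10, SE 0.85). Control females 1 and 3 stood well above the rest, and control female 2 was level with Vibrio female 2. Of the 10 hemocyte and hematopoiesis markers tested, 5 were lower, with 1 above and 2 below control without overlap. Of these 3, 2 were the transglutaminases LOC113826241 and LOC113823934, which stand in both lists.

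Prophenoloxidase and melanization genes had 17 of 25 members lower and a median log2 fold change of -0.22, which was 0.03 without Vibrio female 2 and control female 1. None of the 25 separated the groups. Prophenoloxidase activating enzyme (LOC113819328), the protease that cleaves the proenzyme, had 220, 218 and 317 FPKM in Vibrio females, against 548, 266 and 467 FPKM in control females (log2 fold change -0.79, SE 0.33). Phenoloxidase-activating factor 2-like (LOC113812814, 1 of 10 of that name) had 289, 325 and 354 FPKM in Vibrio females and 835, 345 and 920 FPKM in control females. In both genes control female 2 was near the Vibrio females and the other 2 controls were higher. Prophenoloxidase-1 itself (LOC113827090) had 1085, 537 and 652 FPKM in Vibrio females and 1221, 483 and 854 FPKM in control females, with overlap.

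Recognition and signalling genes of innate immunity did not separate the groups as lists. Lectins had 15 of 24 members higher with a median of 0.63, yet the median was 0.54 without Vibrio female 2 and control female 1 and -0.25 without Vibrio female 1, which was also the library highest in hepatopancreas markers; the part of those markers in the result was not tested. Techylectin-5A-like (LOC113803831, 1 of 3 of that name) had 20.8, 9.45 and 0.344 FPKM in Vibrio females, against 1.06, 0.718 and 0.798 FPKM in control females. Vibrio females 1 and 2 were high and Vibrio female 3 lay below every control. Toll and IMD signalling genes, the routes to NF-kappa-B, had 7 of 18 members higher. Spaetzle (LOC113810575), the ligand of Toll, had 202, 94.7 and 126 FPKM in Vibrio females and 164, 140 and 139 FPKM in control females, and the NF-kappa-B p105-like gene (LOC113806131) had 142, 127 and 113 FPKM in Vibrio females and 117, 127 and 121 FPKM in control females. Both overlapped. JAK-STAT and antiviral genes had 13 of 16 members higher with a median of 0.39, which was 0.63 without Vibrio female 2 and control female 1 and -0.24 without Vibrio female 3. Argonaute 2 (LOC113806880, 1 of 2 of that name), the effector of RNA interference, had 10.99, 8.65 and 18.7 FPKM in Vibrio females and 8.202, 10.4 and 7.24 FPKM in control females.

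The Kunitz-type inhibitor HCRG1-like (LOC113806311), the most abundant protease inhibitor, differed more within groups than between them. It had 13992, 4528 and 776 FPKM in Vibrio females and 2134, 4772 and 2205 FPKM in control females. Vibrio female 1 was the highest of the 6 libraries and Vibrio female 3 the lowest.

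**Figure D3:**
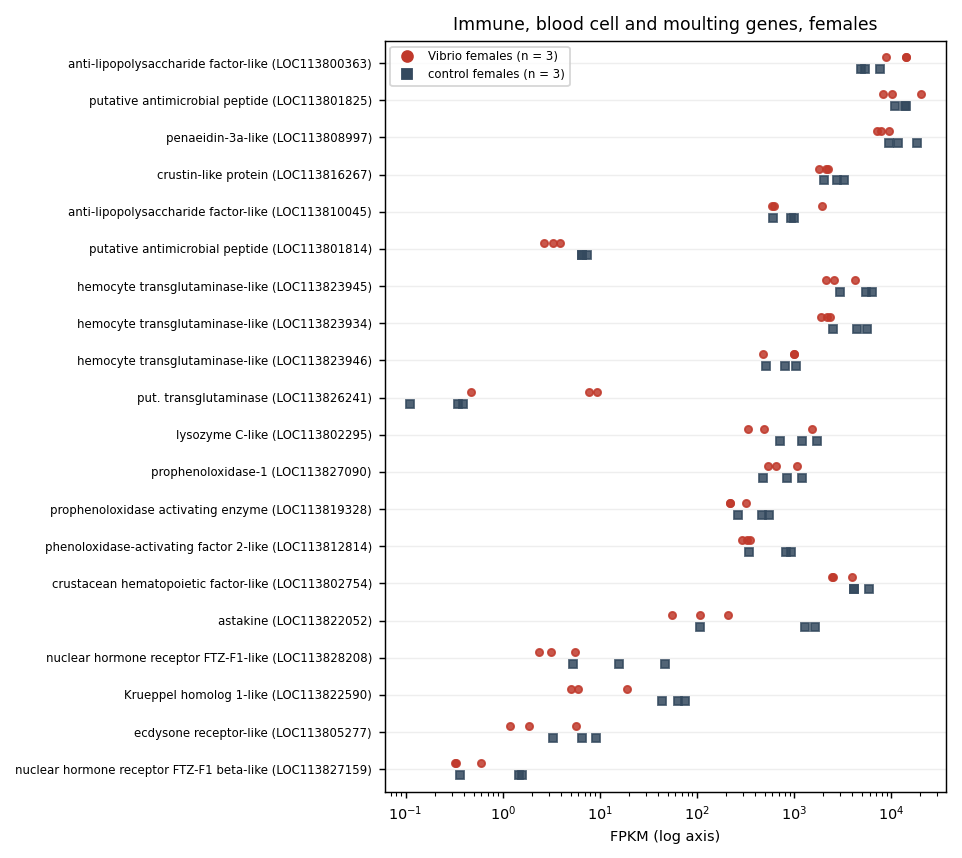
FPKM on a log axis of immune effectors, blood cell factors and regulators of moulting, with a red circle for each of 3 Vibrio females and a dark square for each of 3 control females. Crustacean hematopoietic factor-like protein and Krueppel homolog 1-like are lower in all 3 Vibrio females, while for astakine and phenoloxidase-activating factor 2-like 1 control library lies beside the Vibrio libraries.

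Nuclear receptors and genes of the ecdysone response, which time the moult in arthropods, were mostly lower. Of 28 tested, 21 were lower, 3 of them without overlap, beside 3.9% of all genes. The median log2 fold change was -0.25. It was -0.05 without Vibrio female 2 and control female 1. Nuclear hormone receptor FTZ-F1-like (LOC113828208), whose *Drosophila* counterpart makes tissues competent for ecdysone pulses, had 5.495, 3.16 and 2.37 FPKM in Vibrio females, against 46.9, 5.27 and 15.8 FPKM in control females. Control female 1 was far above the others and control female 2 just below the highest Vibrio library. Its log2 fold change was -2.63 with SE 0.68, and DESeq2 called it (adjusted p = 0.0323) in 3 of 6 fits without 1 library. Krueppel homolog 1-like (LOC113822590), a transcription factor of the juvenile hormone response in insects, had 5.97, 4.99 and 18.9 FPKM in Vibrio females, against 43.3, 75.5 and 64.5 FPKM in control females. It separated the groups by a wide margin (log2 fold change -2.66, SE 0.99). Ecdysone receptor-like (LOC113805277, 1 of 2 of that name) had 1.18, 1.88 and 5.68 FPKM in Vibrio females and 6.51, 3.27 and 9.19 FPKM in control females. Ecdysone-induced protein 74EF (LOC113800218), an early target of ecdysone in *Drosophila*, had 0.0922, 0.0654 and 0.143 FPKM in Vibrio females and 5.26, 0.133 and 1.28 FPKM in control females. Control female 2 again lay among the Vibrio females in both genes. The broad-complex genes, picked out after their values were seen, had 10 of 14 members lower. Their median was -0.18, which was -0.03 without Vibrio female 2 and control female 1.

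Lysosome and cathepsin genes had 47 of 55 members higher, beside 55% of all genes, and a median log2 fold change of 0.39. Of the 55, 8 were above and 1 below control without overlap, beside 2.48% and 3.9% of all genes. The list includes V-type proton ATPase genes described above, so these counts are not independent of that family. Of the 18 genes of the family, 5 were above and 1 below control without overlap. The median was 0.09 without Vibrio female 1, the lowest of the 6 values obtained by leaving out 1 library, and 0.28 without Vibrio female 2 and control female 1. Beside the proton pump, prosaposin-like (LOC113813144, 1 of 2 of that name), the precursor of the activators of lysosomal lipid breakdown, had 92.9, 159 and 112 FPKM in Vibrio females and 79.5, 86.6 and 75.6 FPKM in control females. NPC intracellular cholesterol transporter 2 homolog (LOC113806913), which carries cholesterol out of lysosomes, had 54.1, 67.4 and 92.4 FPKM in Vibrio females, against 41.4, 48.8 and 44.2 FPKM in control females. Both were above control in each Vibrio library. The abundant protease cathepsin L (LOC113825585) had 546, 421 and 313 FPKM in Vibrio females and 236, 360 and 227 FPKM in control females. Cathepsin B (LOC113808173) had 301, 459 and 228 FPKM in Vibrio females and 206, 394 and 374 FPKM in control females. Both proteases overlapped between the groups.

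Endosome and autophagy genes followed with 93 of 127 members higher, beside 55% of all genes. Of the 127, 10 were above and 3 below control without overlap, beside 2.48% and 3.9% of all genes. The median was 0.13, and 0.15 without Vibrio female 2 and control female 1. The early endosome GTPase Rab-5C-like (LOC113824221) had 39.1, 44.3 and 84.4 FPKM in Vibrio females, against 32.0, 33.02 and 30.5 FPKM in control females (log2 fold change 0.79, SE 0.29). DNA damage-regulated autophagy modulator protein 2-like (LOC113827018, 1 of 2 of that name) had 8.45, 8.74 and 13.5 FPKM in Vibrio females and 5.32, 7.32 and 4.11 FPKM in control females. Vibrio female 3 was the highest library for both. Among the Rab GTPases, which direct vesicle traffic, 21 of 28 were higher. Of the 28, 4 were above and 0 below control without overlap, beside 2.48% and 3.9% of all genes. Their median log2 fold change was 0.26, and 0.07 without Vibrio female 3. This family was picked out after its values were seen.

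In the cytoskeleton list 56 of 87 members were higher, and the list took 5.97, 5.23 and 5.496% of the scaled counts in Vibrio females, against 4.70, 4.70 and 4.62% in control females. These shares did not overlap, but they weigh the most abundant genes most. Of the 87, 3 were above and 3 below control without overlap, beside 2.48% and 3.9% of all genes. The median log2 fold change was 0.12, and the median deviation of members from their mean log2 CPM overlapped between the groups. Profilin-like (LOC113830566, 1 of 2 of that name), which feeds actin monomers to growing filaments, had 8871, 9612 and 8319 FPKM in Vibrio females, against 4754, 7879 and 5446 FPKM in control females (log2 fold change 0.57, SE 0.23). All Vibrio libraries exceeded all controls. The actin gene LOC113813020, the most abundant of the list over these libraries, had 10249, 5507 and 12979 FPKM in Vibrio females and 11130, 4819 and 9214 FPKM in control females, with overlap. The severing protein gelsolin (LOC113813489) ran the other way, at 73.1, 131 and 144 FPKM in Vibrio females and 188, 167 and 142 FPKM in control females. In the adhesion list of 62 genes, 29 were higher, and collagen alpha-1(XV) chain-like (LOC113814434, 1 of 4 of that name) had 28.9, 20.7 and 48.2 FPKM in Vibrio females, against 112, 102 and 42.0 FPKM in control females. Gelsolin and the collagen gene did not overlap after scaling, the collagen gene by a small margin in library 3 of each group.

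Glycolysis and lactate genes had 18 of 24 members higher and a median log2 fold change of 0.25. Of the 24, 4 were above control without overlap, beside 2.48% of all genes. A list score per library, the median over members of the deviation from the gene's mean log2 CPM, was 0.23, 0.36 and -0.06 in Vibrio females and -0.18, -0.29 and -0.12 in control females. This was the only one of the 37 lists whose scores did not overlap between the groups. Among 37 lists, 1 such separation of 3 and 3 libraries is not unusual, and lists got no test. The median was 0.18 to 0.42 when 1 female library was left out and 0.24 without Vibrio female 2 and control female 1. Phosphoglycerate kinase-like (LOC113825776) had 239, 271 and 224.5 FPKM in Vibrio females, against 149, 224.5 and 148 FPKM in control females. Phosphoglycerate mutase 2 (LOC113818926, 1 of 2 of that name) had 137, 154 and 126 FPKM in Vibrio females and 91.8, 104 and 93.7 FPKM in control females. L-lactate dehydrogenase-like (LOC113809991), which regenerates NAD+ from NADH as it makes lactate, had 402, 265 and 134 FPKM in Vibrio females and 144, 162 and 110 FPKM in control females. Of these genes the kinase and the mutase separated the groups after scaling and the dehydrogenase did not. Fructose-bisphosphate aldolase-like (LOC113808337), of an earlier step, had 1086, 1352 and 840 FPKM in Vibrio females and 913, 1254 and 835 FPKM in control females, with overlap.

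Genes of protein synthesis, protein degradation and respiration leaned higher in large numbers, but the medians of these lists depended on Vibrio female 2 and control female 1. Of 87 cytoplasmic ribosomal protein genes 78 were higher, with a median log2 fold change of 0.28. Of 49 proteasome genes 43 were higher (0.39), of 68 respiratory chain and ATP synthase genes 65 (0.29), and of 90 translation factors and tRNA synthetases 78 (0.21). Without Vibrio female 2 and control female 1 the medians were 0.0035 for ribosomal proteins, 0.0021 for the proteasome, -0.13 for the respiratory chain and 0.01 for translation factors, where the median of all genes was 0.04. The list scores show the same libraries. For the proteasome they were 0.24, 0.61 and -0.23 in Vibrio females and -0.58, 0.10 and -0.08 in control females, and for the respiratory chain 0.14, 0.55 and -0.31 in Vibrio females and -0.51, 0.13 and 0.03 in control females. Vibrio female 2 was the highest and control female 1 the lowest in both lists, and Vibrio female 3 lay below 2 of the 3 controls. Leaving out the highest Vibrio and the lowest control library narrows a difference by construction. For glycolysis the lowest score was in control female 2, which stayed in, so the lists are not compared evenly. With 1 female library left out, the medians stayed above 0. They were 0.14 to 0.43 for ribosomal proteins, 0.15 to 0.60 for the proteasome and 0.02 to 0.48 for the respiratory chain. Ribosomal proteins took 9.61, 10.7 and 8.51% of the scaled counts in Vibrio females and 6.66, 8.94 and 8.45% in control females.

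Single members of these lists did not overlap between the groups. 60S ribosomal protein L21-like (LOC113808507) had 1609, 2029 and 1601 FPKM in Vibrio females, against 1026, 1151 and 1260 FPKM in control females. Proteasome subunit alpha type-1-like (LOC113806207) had 120.02, 118 and 121 FPKM in Vibrio females, against 67.6, 102 and 77.9 FPKM in control females. The 3 Vibrio values of the proteasome subunit were nearly equal. In all, 13 of 87 ribosomal and 2 of 49 proteasome genes lay above control without overlap, 2 and 0 below, and of the respiratory chain 0 did either way, beside 2.48% above and 3.9% below over all genes. ATP synthase subunit beta (LOC113829387) had 592, 687 and 707 FPKM in Vibrio females and 568.2, 793 and 557 FPKM in control females.

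**Figure D4:**
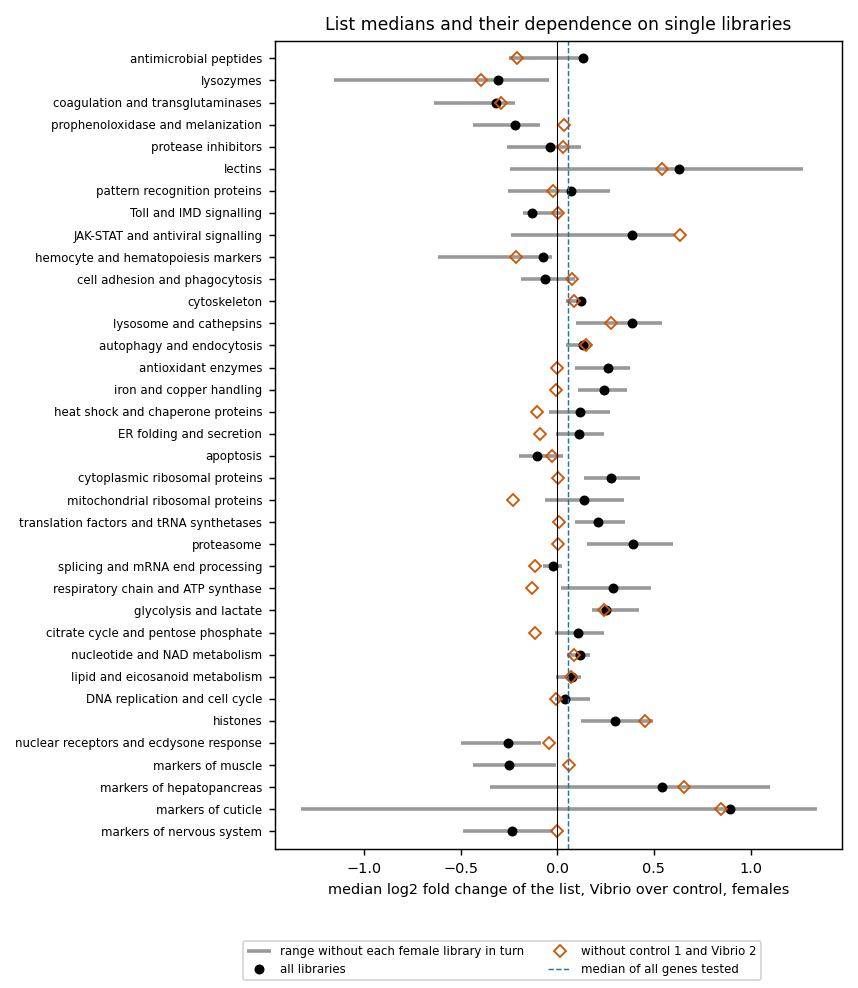
Median log2 fold change of Vibrio over control in 36 gene lists (black points), its range when each female library is left out in turn (grey bars) and its value without Vibrio female 2 and control female 1 (open diamonds), with the median of all genes tested as a dashed line. Glycolysis stays near 0.25 with and without the 2 libraries, while ribosomal proteins, proteasome and respiratory chain lie close to or below 0 without them. The 2 libraries hold the highest and lowest scores of those lists, but not the lowest of glycolysis, so the contrast is partly fixed by their choice.

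The lists of antioxidant enzymes, iron and copper handling and chaperones showed the same dependence. Antioxidant enzymes had 40 of 57 members higher and a median of 0.26, which was close to 0 without the 2 libraries. Peroxiredoxin-6-like (LOC113823673, 1 of 2 of that name), which reduces peroxides, had 103, 125 and 104 FPKM in Vibrio females and 96.6, 78.8 and 68.0 FPKM in control females. It separated the groups (log2 fold change 0.45, SE 0.19). Iron and copper handling genes were higher in 22 of 24 members with a median of 0.24, and -0.01 without the 2 libraries. Ferritin-like (LOC113821440), which stores iron, had 909, 399 and 286 FPKM in Vibrio females and 178, 357 and 324 FPKM in control females. Vibrio female 1 was the highest and control female 1 the lowest of the 6. Chaperones had 52 of 74 members higher with a median of 0.12 and -0.11 without the 2 libraries, and heat shock cognate 70 kDa protein (LOC113817372, 1 of 2 of that name) had 897, 530 and 812 FPKM in Vibrio females and 688, 628 and 623 FPKM in control females. Histones were higher in 12 of 15 members, with a median of 0.30 and 0.45 without the 2 libraries. Histone H1-beta, late embryonic-like (LOC113821142, 1 of 2 of that name) had 74.0, 38.3 and 21.3 FPKM in Vibrio females and 7.37, 32.2 and 9.18 FPKM in control females, and control female 2 fell among the Vibrio libraries. Apoptosis genes had 17 of 38 members higher, and caspase 3 (LOC113802198) had 127, 163 and 87.4 FPKM in Vibrio females and 114, 129 and 222 FPKM in control females.

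Hepatopancreas markers had 73 of 102 members higher and none that separated the groups. Their scores were 2.30, -2.16 and 0.82 in Vibrio females and -2.45, 0.63 and 0.69 in control females. Hemocyanin (LOC113830072, 1 of 3 of that name), the oxygen carrier of the plasma, had 116, 11.2 and 205 FPKM in Vibrio females and 4.85, 179 and 67.0 FPKM in control females. The median of the list was 0.54, and 0.65 without Vibrio female 2 and control female 1, but -0.35 without Vibrio female 1. Muscle markers were lower in 38 of 61 members with a median of -0.25, and 0.06 without Vibrio female 2 and control female 1. Cuticle markers had a median of 0.89, and 0.85 without those 2 libraries, but -1.33 without Vibrio female 1.

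Of the list members with the smallest p not described so far, apoptosis-inducing factor 3-like (LOC113830398) had 10.8, 7.51 and 11.6 FPKM in Vibrio females and 5.95, 7.92 and 4.15 FPKM in control females. Its scaled groups did not overlap, though Vibrio female 2 and control female 2 were close (log2 fold change 0.73, SE 0.22). The putative hypoxia up-regulated protein 1 (LOC113817803), a chaperone of the endoplasmic reticulum, ran the other way, with 9.35, 7.63 and 10.7 FPKM in Vibrio females and 17.1, 11.5 and 10.8 FPKM in control females (log2 fold change -0.52, SE 0.21). The gene for NF-kappa-B inhibitor-interacting Ras-like protein 2 (LOC113819976) had 13.1, 15.2 and 16.05 FPKM in Vibrio females and 16.3, 21.6 and 17.3 FPKM in control females. Both stood below control in every Vibrio library after scaling. Cyclin G2 (LOC113825328), monoglyceride lipase-like (LOC113821730) and tropomyosin-like (LOC113820944, 1 of 2 of that name) had log2 fold changes of -0.57, -0.69 and -0.57 with overlap. Leukocyte elastase inhibitor-like (LOC113806289, 1 of 13 of that name), chitinase 1C (LOC113803506) and crustacyanin-C1 subunit-like (LOC113826970, 1 of 7 of that name) had -0.83, -0.65 and -1.01, also with overlap. Among those higher, dnaJ homolog subfamily C member 10-like (LOC113805237) and the mitochondrial ribosomal protein L2 gene (LOC113823084, 1 of 2 of that name) had log2 fold changes of 0.49 and 0.40 without overlap. Eukaryotic translation initiation factor 3 subunit J-like (LOC113818283), a succinate dehydrogenase subunit gene (LOC113829947), each 1 of 2 so named, and the 6-phosphogluconate dehydrogenase gene (LOC113803123) had 0.74, 0.52 and 0.39 with overlap.

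**Figure D5:**
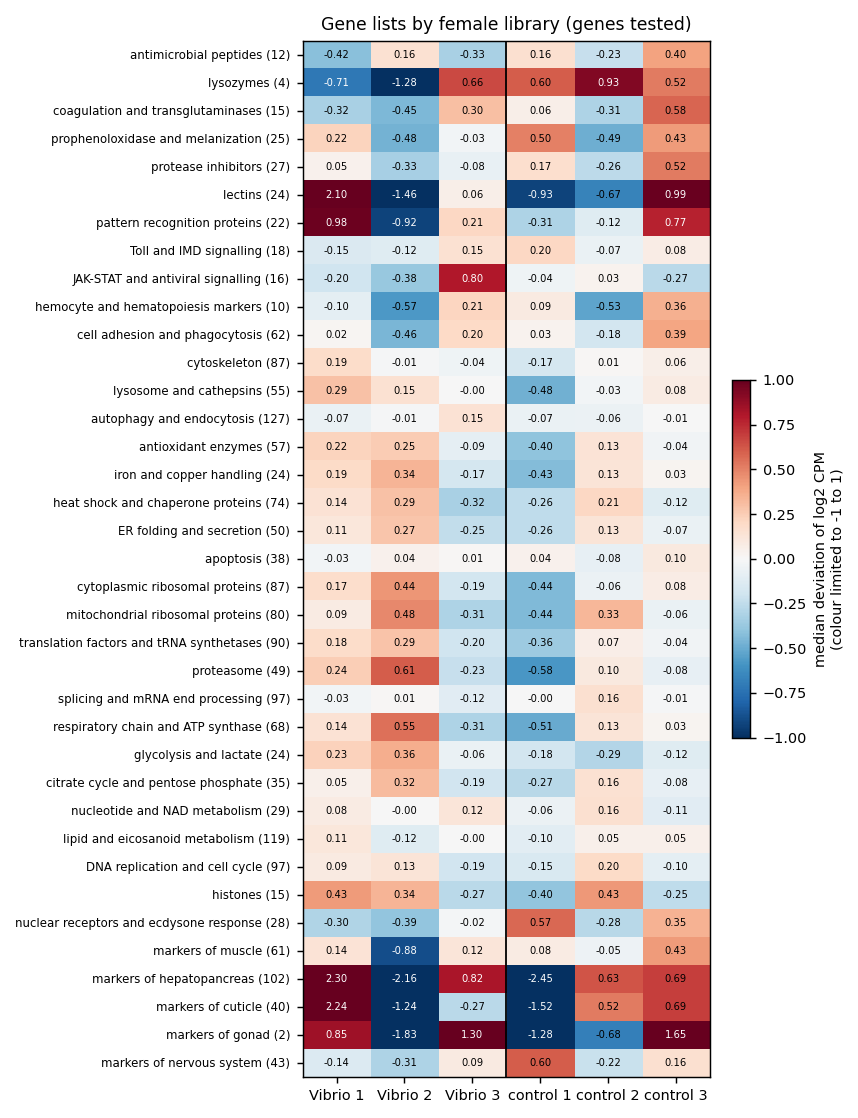
List scores of 37 gene lists in the 6 female libraries, Vibrio on the left and control on the right; a score is the median over tested members of the deviation of log2 CPM from the gene's mean over the 6 libraries, and the number of members is in brackets. Vibrio female 2 and control female 1 hold the lowest hepatopancreas scores, -2.16 and -2.45, and opposite ends of the ribosomal, proteasome and respiratory lists.

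Whether the female response differed from that of males was tested in the same fit. EdgeR called 0 of 14295 genes for the difference of the Vibrio effect, females minus males, with a smallest adjusted p of 0.740. An unadjusted p under 0.05 was found for 800 genes, where about 715 would be expected if no gene differed. DESeq2 called 17 genes higher and 11 lower for that difference. Of the 56 genes named by the rule, 0 passed the edgeR test. The edgeR test of the difference thus singled out no gene as particular to females, which does not show that the sexes responded alike.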

How the data were processed

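RNA-seq of hemocytes was analysed from the single table the authors deposited, which holds for each of 18803 genes a read count and an FPKM value per library. The deposited counts were whole numbers with differing totals and were used as raw counts, and the deposited FPKM values, scaled by the authors to gene length and depth, were used only to print levels. Trimming with cutadapt 1.9 and quality control with FastQC are named in the submitters' processing notes; the aligner, counter, strand setting and genome build were not given in the sources used here. Gene names came from the deposited table, where 12678 genes have a descriptive one, and 12909 of the 18803 IDs also stood in the RefSeq table.

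Groups came from the labels. Counts were filtered with filterByExpr (14295 genes kept, 4508 left out), scaled by TMM and tested two-sided with edgeR 4.0.16 (limma 3.58.1, R 4.3.3): a robust quasi-likelihood fit of 4 group means over all 11 libraries, so that males share the estimate of spread, with Benjamini-Hochberg adjustment and a threshold of 0.05. DESeq2 1.42.0 was the alternative test, and tables were made with Python 3.11.15, pandas 2.3.3 and numpy 2.4.6. Other scaling, filters, a non-robust fit, the 6 female libraries alone, a replicate block and each library left out were tried, and, after seeing the data, DESeq2 on females alone and without single libraries, and all fits without control female 1 and Vibrio female 2.

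On simulated counts of 13866 genes for this comparison, edgeR recovered 20% of 50 genes changed 2-fold, 78% at 4-fold, 92% at 8-fold and 96% at 16-fold, with 1 false call of 144. The changed genes averaged at least 5 CPM, and each gene was drawn independently. The simulation thus lacks the differences that many genes share between the real libraries, and recovery in these may be lower. The members and lists were chosen with earlier results of these data known. The 37 lists were built from name patterns with 2332 entries, after 509 entries were removed by name, and a transglutaminase pattern was added by name. Named genes were the 12 higher and 12 lower with the smallest p among descriptive, non-overlapping genes of at least 5 FPKM, the smallest p of each list at that level, the most abundant immune effectors and the genes DESeq2 called. A group at 0 was given a limit of 3 counts over its libraries. Lists got no test of their own.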

Additional observations from a re-analysis of the deposited data

How the results depend on the processing

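EdgeR called 0 genes in females and 0 for the difference from males under DESeq2 size factors, no filter, a 1 CPM filter and a non-robust fit, and 0 in females with the 6 female libraries alone or without control female 1 and Vibrio female 2. Leaving out 1 library gave 0 to 1 higher and 0 to 1 lower in females, and 0 to 1 each way for the difference. DESeq2 called 10 higher and 11 lower in females and 17 and 11 for the difference. On the 6 female libraries alone it called 5 and 7, and without control female 1 and Vibrio female 2 it called 15 and 7. Leaving out 1 female library, DESeq2 called 3 to 66 higher and 3 to 166 lower; without Vibrio female 3 the counts were 66 and 166, without control female 2 they were 37 and 84, without control female 1 they were 3 and 3, and without Vibrio female 1, Vibrio female 2 and control female 3 they were 6 and 7, 12 and 12, and 6 and 7. The cause was not tested.

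With the replicate block edgeR called 0 genes in females, 609 of them at an unadjusted p under 0.05. Same-numbered libraries deviated with correlations of -0.57, -0.17 and 0.04, so none of these was clearly positive. Values from so few libraries cannot exclude a weaker link, so whether the numbers pair the samples was not decided.

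Of the values for named genes, 1383 kept direction and side, 107 passed the threshold under an alternative and 15 reversed. The putative antimicrobial peptide LOC113801825 had -0.47 to 0.19 with edgeR when 1 library was left out, 0.20, 0.079 and 0.11 with DESeq2 without Vibrio female 1, Vibrio female 2 and control female 3, and 0.10 with either tool without control female 1 and Vibrio female 2. Prophenoloxidase-1 (LOC113827090) had -0.55 to 0.12 when 1 library was left out, 0.0068 and 0.14 with DESeq2 without Vibrio female 2 and control female 1, and 0.29 (edgeR) and 0.31 (DESeq2) without control female 1 and Vibrio female 2. HCRG1-like (LOC113806311) had -0.13 to 1.64 with edgeR, and -0.094 with DESeq2 without Vibrio female 1. Of list medians 314 moved by less than the spread between replicates and 19 by more. The median of all genes was 0.08 with DESeq2 size factors (57.8% higher), 0.0067 without Vibrio female 1 (50.5% higher) and -0.02 without Vibrio female 3 (48.1% higher).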

Other observations

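Genes without a count in 1 group were compared. In 28 genes all 3 Vibrio females had 0 counts and all 3 control females had counts, and 3 of these averaged 1 FPKM or more in controls. Beside ZNF711-like they were spore coat protein SP65-like (LOC113805072), with 36, 47 and 6389 counts in control females, and Replication factor C subunit 1 (LOC113810150), with 61, 51 and 17. With 3 counts allowed over the Vibrio group, the estimated limits were 2273-fold and 45.3-fold lower with Vibrio. Control female 3 held nearly all counts of the SP65-like gene, and without it the limit was 43.7-fold. For Replication factor C subunit 1 the limit was 35.4-fold without control female 1. These limits assume independent counts, which these were not, so the true limits may be smaller. They cover counting error only. In males, Replication factor C subunit 1 had 2.99, 0 and 2.91 FPKM with Vibrio and 0 FPKM in both controls. In 27 genes the control females were at 0 and all Vibrio females had counts, and 0 of these averaged 1 FPKM.

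Of the 21 genes DESeq2 called in females, 2 with uncharacterized products were higher with Vibrio. LOC113816700 had 47.7, 52.9 and 83.6 FPKM in Vibrio females, against 37.0, 30.7 and 32.8 FPKM in control females (DESeq2 adjusted p = 0.0323, called in 2 of 6 fits without 1 library). LOC113801232 had 68.9, 31.0 and 15.5 FPKM in Vibrio females, against 0.353, 1.85 and 1.17 FPKM in control females (DESeq2 adjusted p = 0.0404, also in 2 of 6). Calls of the serine-rich adhesin for platelets-like gene (LOC113803232) and of a serine/arginine repetitive matrix protein 2-like gene (LOC113809515, 1 of 34 of that name) rested on libraries at 0, and each was called in 3 of 6 fits without 1 library. The adhesin-like gene had 0, 2.63 and 0 FPKM in Vibrio females and 0 in control females (DESeq2 adjusted p = 0.000404), and the matrix protein-like gene had 0 in Vibrio females and 1.66, 0.155 and 0.186 FPKM in control females (DESeq2 adjusted p = 0.0143).

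Hemocyanin genes, picked out after their values were seen, stood higher with Vibrio in 24 of 24 tested. Their median log2 fold change was 1.94, while 0 of them separated the groups. The median was 0.40 without Vibrio female 1 and 2.503 without Vibrio female 2, the lowest and highest values when 1 library was left out, and 1.95 without Vibrio female 2 and control female 1 together. Hemocyanin LOC113830072 was lowest in those 2 libraries, at 11.2 and 4.85 FPKM.

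EdgeR called single genes when 1 library was left out. Without Vibrio female 1 it called LOC113808903 (edgeR adjusted p = 0.0422), which had 0, 7.54 and 7.06 FPKM in Vibrio females and 0 FPKM in control females. Without Vibrio female 3 it called LOC113823782 (edgeR adjusted p = 0.0109), which had 0, 0 and 12.9 FPKM in Vibrio females and 7.001, 3.29 and 4.39 FPKM in control females.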
